A study of Rattus norvegicus with 6 samples.

Results

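Oxidative phosphorylation genes were followed through the cell classes of rat lungs after bleomycin (BLM). Members were chosen by symbol alone, as every gene of the count table whose name starts with Nduf, Sdh, Uqcr, Cox4, Cox5, Cox6, Cox7, Cox8 or Atp5. This gave 91 of 16383 genes. They comprised 35 subunit genes of complex I, 4 of complex II, 8 of complex III, 14 of complex IV and 15 of ATP synthase. A further 3 genes, a supercomplex factor (Cox7a2l) and gene copies (Cox7a2l2 and Cox6c.ps1), were counted with complex IV, the inhibitor Atp5if1 was counted with ATP synthase, and 11 were assembly factors of complexes I and II. The lungs came from 3 Sprague Dawley rats that received saline and 3 that received a single dose of BLM of 5 mg/kg through the trachea, both taken at day 28, from which small tissue pieces of both groups were digested after perfusion and profiled with the BD Rhapsody system. BLM instillation is a standard model of lung injury and fibrosis. Each captured mRNA carries a unique molecular identifier (UMI), so a count stands for a molecule. Levels are given as CPM, the UMIs of a gene scaled to the same total for each class in each rat. CPM is a relative scale, so more molecules of a member and fewer molecules of other genes cannot be told apart. Levels are compared for 1 gene across cells, and between genes only as the share of UMIs that 1 gene of a pair of alternative subunits takes. Cell names carry the letters N and F in place of the group names, and the letters were matched to the groups by their cell totals, so every direction rests on that match.

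Oxidative phosphorylation is carried out in the inner mitochondrial membrane. Complex I (NADH dehydrogenase) and complex II (succinate dehydrogenase) pass electrons through ubiquinone to complex III, cytochrome c and complex IV (cytochrome c oxidase), which reduces oxygen. Complexes I, III and IV pump protons, and ATP synthase uses the gradient to make ATP. Most subunits are encoded in the nucleus, and the genes studied here are all of that kind. Some subunits of complex IV come as pairs of genes used by different tissues or at different oxygen levels. In the lung, macrophages are known to shift between oxidative and glycolytic metabolism with their activation state, and neutrophils are known for their reliance on glycolysis.

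The table held 25547 cells, between 2568 and 7481 per rat, with medians of 1066 to 1840 UMIs per cell. Members took 1.57% to 1.99% of the UMIs of a rat, and genes named after the mitochondrial genome's accession took 2.30% to 3.76%. In all, 314 cell barcodes occurred in more than 1 rat, which concerned 629 cells. The cells were clustered without the members, and a cluster received a name only from a list of marker genes, so that every class name stands for cells like the named type. The alveolar macrophage class was kept as its clusters 0, 2 and 8, because cluster 0 had 1 neutrophil marker and 0 alveolar macrophage markers among its 10 leading genes. BLM-treated and control rats were compared in 14 classes with at least 10 cells in each of the 6 rats.

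The share of UMIs that fell on members differed between classes, which is a description because classes come from the same cells. Over the 17 classes with at least 5 cells in every rat, it was lowest in neutrophils, with 0.98% on average over the 6 rats, followed by B cells with 1.18%, monocytes with 1.31% and fibroblasts with 1.35%. It was highest in mural cells (smooth muscle cells and pericytes) with 2.40% ± 0.338 (SD, n = 6), in proliferating cells with 2.25% ± 0.202 (SD, n = 6) and in cluster 0 of the alveolar macrophages with 2.08% ± 0.134 (SD, n = 6). The top 3 did not differ beyond the spread between rats, since mural cells ranged from 2.01% to 2.80% and cluster 0 from 1.91% to 2.29%. Of the 91 members, 32 had their highest class mean in mural cells, 19 in proliferating cells and 11 in plasmacytoid dendritic cells. Each rat weighs the same in a class mean, and the mural cells of control replicate 1 were 6 cells with 7595 UMIs. Neutrophils held the lowest class mean of 47 members and B cells that of 20. Neutrophils and B cells were also the shallowest of these classes, with medians of 621 and 591 UMIs per cell against 1460.5 in mural cells and 4175 in proliferating cells.

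**Figure D1:**
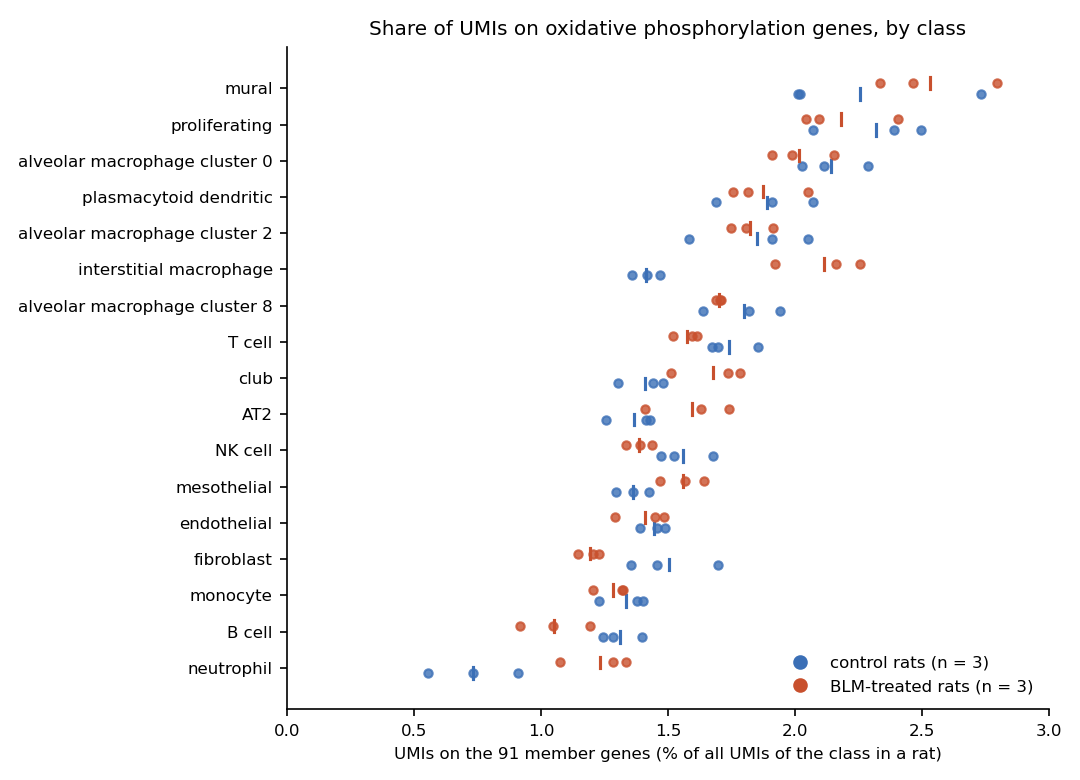
Share of all UMIs of a class that fell on the 91 member genes (x axis, percent), 1 point per rat and a bar at the mean of the 3 rats of a group, for the classes of the y axis. Blue points are control rats and orange points BLM-treated rats. Neutrophils lie lowest and mural cells highest, and the groups separate in interstitial macrophages, with 1.36% to 1.47% in control rats and 1.92% to 2.26% in BLM-treated rats.

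In 8 classes the members' share in the 3 BLM-treated rats lay apart from that in the 3 control rats. In interstitial macrophages it was 1.36%, 1.47% and 1.42% in control rats and 2.26%, 2.16% and 1.92% in BLM-treated rats. In neutrophils it was 0.731%, 0.555% and 0.909% against 1.28%, 1.335% and 1.08%. Both classes thus stood higher after BLM without overlap. Mesothelial cells (1.36% against 1.56% on average) and club cells (1.41% against 1.68%) were also higher in every BLM-treated rat. Fibroblasts went the other way, from 1.46%, 1.355% and 1.70% in control rats to 1.23%, 1.15% and 1.205% in BLM-treated rats. B cells (1.31% against 1.05%), NK cells (1.56% against 1.39%) and T cells (1.74% against 1.58%) were likewise lower in every BLM-treated rat. These shares carry no test, and those of club cells rested on 8, 9 and 20 control cells. Of 66 members tested gene by gene in club cells, 30 were above 0 after BLM. Their median log2 fold change was -0.025 against 0.041 over all genes.

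Cox4i2 and Ndufa4l2 were almost restricted to mural cells, while Cox6b2 was highest in mesothelial cells but also present in fibroblasts and mural cells. All 3 belong to pairs of alternative subunits of complex IV. Cox4i2 is the alternative form of Cox4i1, a nuclear-encoded subunit that carries a regulatory site of the enzyme and whose second form is known from lung and low oxygen. In mural cells Cox4i2 stood at 658, 670 and 470 CPM in control rats and at 420, 353 and 322 CPM in BLM-treated rats. These UMIs came from 6, 25 and 56 control cells and from 209, 236 and 222 BLM cells. Every BLM-treated rat thus lay below every control rat, but the change did not pass (log2 fold change -0.52, standard error 0.30, adjusted p = 0.421 by the quasi-likelihood test of edgeR and Benjamini-Hochberg). Of the UMIs of Cox4i1 and Cox4i2 in mural cells, 27.1% were Cox4i2 in control rats (95% Wilson interval 22.7% to 32.1%) and 17.3% in BLM-treated rats (15.8% to 18.9%). These intervals pool the rats and cover counting error only. In the endothelial class, which lies next to mural cells in the vessel wall, the share was 0.531%, and in fibroblasts 0.518%. Mural cells held 495 UMIs of Cox4i2, fibroblasts 19 and endothelial cells 16, and no other class of the plot of alternative subunits held more than 6. In neutrophils none was counted, so that mural cells stood at least 241-fold higher, taking 3 UMIs over the class as the floor.

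Ndufa4l2 showed the same restriction. It is the paralog of Ndufa4, which was named after complex I and is now known as a subunit of complex IV, and its own expression is known to follow hypoxia-inducible factor. In mural cells Ndufa4l2 stood at 263, 670 and 444 CPM in control rats and at 409, 274 and 375 CPM in BLM-treated rats, so the groups overlapped (log2 fold change -0.44, standard error 0.30, adjusted p = 0.555, edgeR). It made up 54.7% of the UMIs of the pair in control rats (47.0% to 62.3%) and 48.7% in BLM-treated rats (45.3% to 52.1%). In endothelial cells its share was 1.74% and in fibroblasts 1.35%. No UMI of Ndufa4l2 was found in cluster 0 of the alveolar macrophages, against which the mural mean of 405.8 CPM was at least 1434-fold higher. Neither Cox4i2 nor Ndufa4l2 is on the marker list that named the mural class. Fibroblast markers were also present in the mural class, at 4557 to 9348 CPM in control rats and 1297 to 2339 CPM in BLM-treated rats, and their part in these values was not tested.

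The promoters of the Ndufa4 pair are shown because the genes differ so much in where they are used. Both come from RefSeq (GRCr8) and run from 250 bases before the annotated start to 50 after it, with Ndufa4 at chr4:40975510-40975809 on the minus strand and Ndufa4l2 at chr7:65241919-65242218 on the plus strand. Capitals would mark matches to the NRF1, ETS or YY1 motifs given further on, and neither window holds one.
Ndufa4: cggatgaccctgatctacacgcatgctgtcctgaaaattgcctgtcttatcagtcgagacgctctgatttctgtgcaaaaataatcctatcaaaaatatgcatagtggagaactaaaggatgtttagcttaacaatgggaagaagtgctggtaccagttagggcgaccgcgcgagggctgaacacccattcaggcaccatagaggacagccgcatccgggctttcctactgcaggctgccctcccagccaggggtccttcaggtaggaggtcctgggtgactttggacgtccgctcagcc
Ndufa4l2: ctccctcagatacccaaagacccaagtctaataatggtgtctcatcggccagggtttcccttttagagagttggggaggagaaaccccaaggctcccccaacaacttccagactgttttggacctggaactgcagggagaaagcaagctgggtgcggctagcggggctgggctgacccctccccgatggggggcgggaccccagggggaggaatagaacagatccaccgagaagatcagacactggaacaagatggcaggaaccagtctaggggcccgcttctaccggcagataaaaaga

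Cox6b2 was highest in mesothelial cells, the lining of the pleura. It is the form of Cox6b1, a subunit at the dimer interface of complex IV, that is best known from testis. In mesothelial cells it stood at 217, 119 and 323 CPM in control rats and at 225, 178 and 185 CPM in BLM-treated rats, which overlapped (log2 fold change -0.24, standard error 0.30, adjusted p = 0.774, edgeR). Cox6b2 took 44.1% of the UMIs of the Cox6b pair there (95% Wilson interval 41.2% to 47.0%, rats pooled). In fibroblasts it took 17.3% and in mural cells 12.6%. No UMI of Cox6b2 was counted in cluster 0 of the alveolar macrophages or in plasmacytoid dendritic cells, and the mesothelial mean of 207.7 CPM was at least 734-fold above the floor of the former. The muscle form Cox6a2 stayed a minor part of the Cox6a pair in every class, with its highest share of 2.40% in AT2 cells (type 2 alveolar epithelium).

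**Figure D2:**
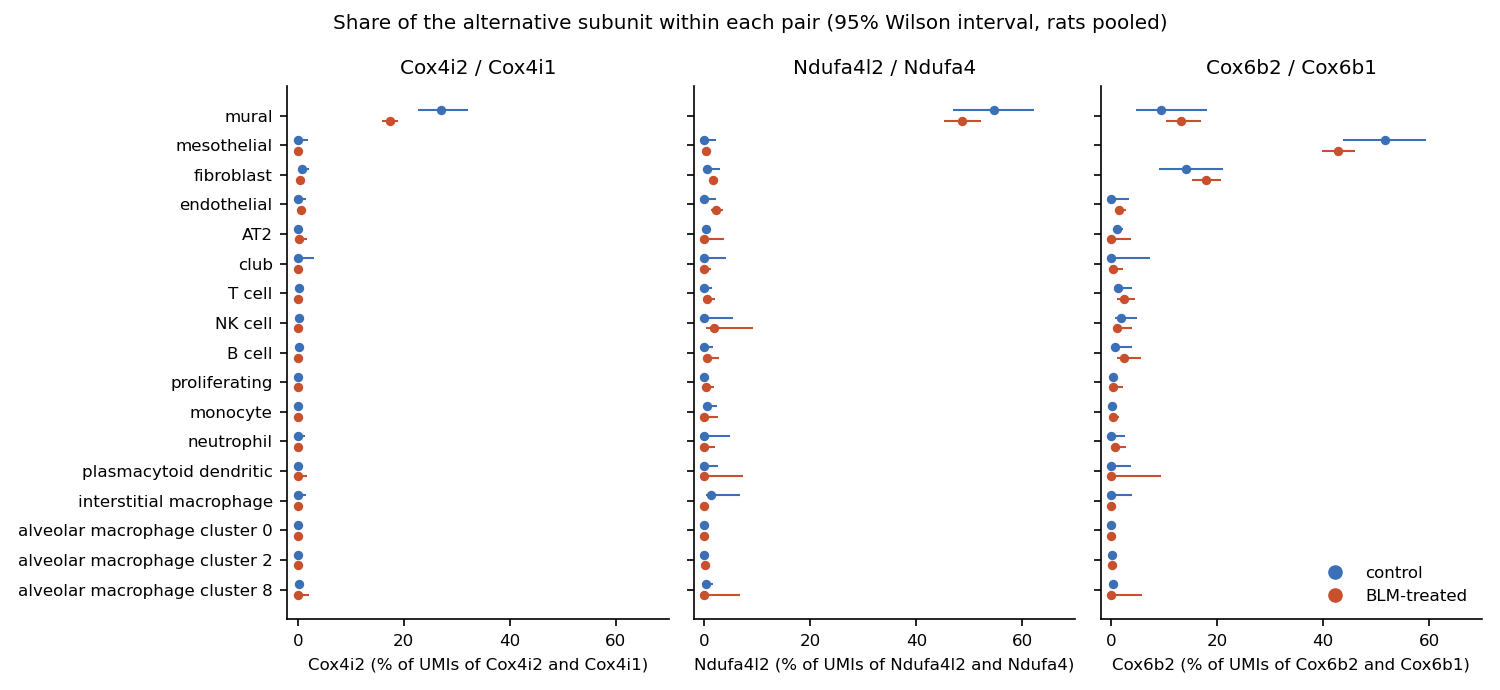
Share of the alternative subunit within each pair (x axes, percent of the UMIs of both genes) for Cox4i2, Ndufa4l2 and Cox6b2 in each class (y axis), with 95% Wilson intervals over the pooled rats of a group. Cox4i2 and Ndufa4l2 stand out in mural cells, at 27.1% and 54.7% in control rats, and Cox6b2 in mesothelial cells, at 51.7% in control rats and 42.9% in BLM-treated rats.

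Other wide differences between classes concerned complex I. Ndufaf7, a methyltransferase needed for complex I assembly, had its highest mean in monocytes, at 56.5 CPM (45.5 to 68.5 CPM over the 6 rats). Its lowest mean was that of T cells, 4.65 CPM (0 to 11.3 CPM), so monocytes stood 12.2-fold higher and no rat overlapped. Both monocyte clusters held it, with means of 50.7 and 62.4 CPM, and neutrophils came next with 32.1 CPM. BLM left no change past the test in monocytes (log2 fold change -0.05, standard error 0.25, adjusted p = 0.965, edgeR). Ndufa11, an accessory subunit that helps hold complex I together, was 17.6-fold higher in fibroblasts (62.8 CPM) than in neutrophils (3.57 CPM, from 7 UMIs).

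For BLM against control, 85 members passed the filter on low counts in at least 1 of the 14 classes and 42 in every one, while 6 were tested in none. A total of 1010 tests of members gave 57 calls at an adjusted p under 0.05 (5.64%), of which 42 were higher and 15 lower in BLM-treated rats. Over all genes, 70167 tests gave 4541 calls (6.47%), so the members' share over all classes was no larger than that of all genes. The calls fell on 41 members in 8 classes. Nearly all of the higher calls belonged to interstitial macrophages (28) and neutrophils (13), and the lower calls to alveolar macrophages, fibroblasts, endothelial cells and proliferating cells. Ndufa2, an accessory subunit of complex I, was the only member called in 3 classes: it rose in interstitial macrophages and fell in cluster 2 of the alveolar macrophages and in proliferating cells.

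**Figure D3:**
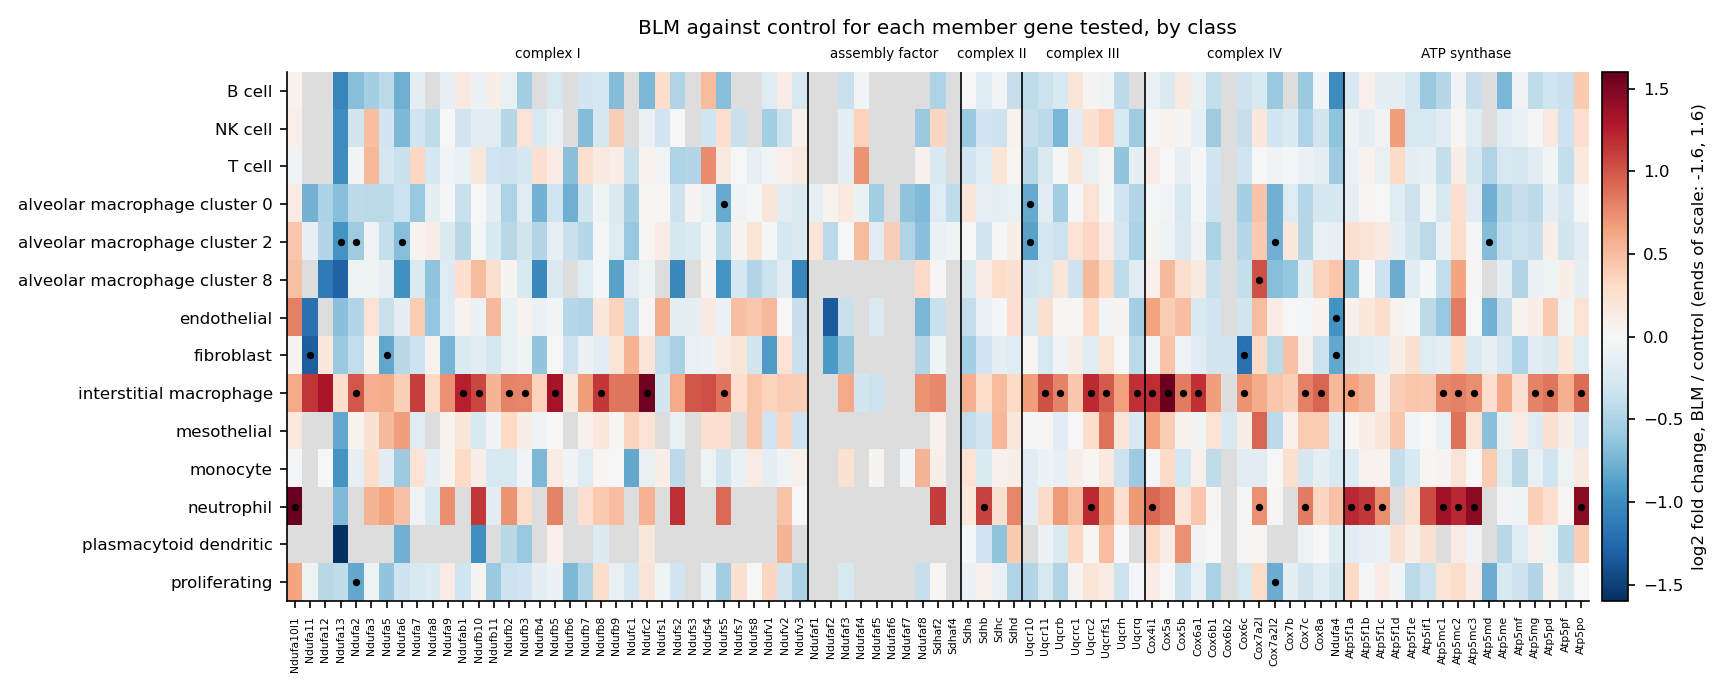
Log2 fold change of BLM-treated over control rats (colour, red higher and blue lower, scale ending at -1.6 and 1.6) for each member tested (x axis, grouped by complex) in the 14 classes (y axis). Black dots mark adjusted p under 0.05 in edgeR and grey cells were not tested. The row of interstitial macrophages is red for 76 of 79 members and that of neutrophils for 50 of 59.

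In interstitial macrophages, 28 of the 79 members tested rose in BLM-treated rats and none fell, where 9.83% of all 5939 genes tested rose. The median log2 fold change of the members was 0.67 against 0.017 over all genes, and 46 members were higher in every BLM-treated rat than in every control rat, a pattern that 16.4% of all genes showed. Complex III had 5 of 8 members up, complex IV 7 of 12, ATP synthase 7 of 16 and complex I 9 of 34. None of the 4 complex II genes (Sdha, Sdhb, Sdhc and Sdhd, log2 fold changes 0.29 to 0.58) and none of the 5 assembly factors tested passed. The share of UMIs on complex IV was 0.380%, 0.389% and 0.399% in control rats and 0.743%, 0.655% and 0.591% in BLM-treated rats.

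Cox5a, a nuclear-encoded subunit of complex IV, moved most among the members called. It stood at 132, 162 and 249 CPM in control rats and at 531, 471 and 469 CPM in BLM-treated rats. The groups were far apart, and the log2 fold change was 1.57 (standard error 0.25), for which edgeR gave an adjusted p = 0.000381. Ndufc2, an accessory subunit in the membrane arm of complex I, went from 90.1, 54.2 and 77.4 CPM to 216, 207 and 197 CPM (log2 fold change 1.56, standard error 0.27, adjusted p = 0.000724). Ndufb5, another accessory subunit of that arm, went from 111, 135 and 103 CPM to 269, 278 and 229 CPM (1.32, standard error 0.25, adjusted p = 0.00132). Both were higher in every BLM-treated rat.

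Ndufab1, the mitochondrial acyl carrier protein that also sits in complex I, was less tight, with 41.6, 81.2 and 94.6 CPM in control rats and 170, 144 and 135 CPM in BLM-treated rats (log2 fold change 1.25, standard error 0.31, adjusted p = 0.0104, edgeR). Uqcrc2, a core protein of complex III, stood at 55.4, 81.2 and 138 CPM against 211, 197 and 154 CPM (1.19, standard error 0.31, adjusted p = 0.0129). Without control replicate 1 these 2 genes no longer passed (adjusted p = 0.102 and 0.113). Cox4i1 went from 790, 677 and 800 CPM to 1733, 1615 and 1323 CPM (1.18, standard error 0.21, adjusted p = 0.000947). Cox6a1, the general form of its subunit, went from 409, 338 and 301 CPM to 770, 702 and 686 CPM (1.17, standard error 0.21, adjusted p = 0.000856). The partners Cox4i2 and Cox6a2 were counted with 2 and 4 UMIs in all interstitial macrophages.

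The interstitial macrophage class joined 2 clusters that were filled very differently by the groups. Cluster 15, with C1qc and F13a1 among its leading genes, held 65, 53 and 66 control cells and 81, 270 and 170 BLM cells. Cluster 11, with Spp1 and Mmp12, held 1, 0 and 5 control cells and 161, 641 and 109 BLM cells. The members' share of UMIs was 2.40%, 2.30% and 2.26% in the BLM cells of cluster 11, and 1.55%, 1.45% and 1.37% in those of cluster 15. Control cells of cluster 15 had 1.32%, 1.47% and 1.35%, which overlapped with the BLM cells of the same cluster. Cells of cluster 11 were also deeper, with a median of 4351 UMIs against 1646. In the whole class, the summed level of the 9 alveolar macrophage markers was 1531 to 1797 CPM in control rats and 2759 to 2860 CPM in BLM-treated rats, and that of the monocyte list was 2316 to 3611 CPM against 1670 to 1873 CPM. The part of these markers in the members' rise was not tested.

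Within cluster 15 alone, a comparison added after seeing these numbers, none of the 58 members tested passed. Their median log2 fold change was 0.085 and 34 were above 0, against 0.67 and 76 of 79 in the class. How many of all genes passed within cluster 15 was not counted. The 28 members that rose in the class had a median log2 fold change of 0.26 there against 0.91 in the class, and 24 kept their sign, while Atp5mc3, Cox6c, Cox7c and Ndufb3 were below 0. Cox5a stood in cluster 15 at 109, 162 and 203 CPM in control rats and at 237, 211 and 187 CPM in BLM-treated rats (log2 fold change 0.45, adjusted p = 0.536, edgeR), while BLM cells of cluster 11 had 590, 521 and 640 CPM. Ndufb8, named here for its promoter, had overlapping values of 284, 352 and 166 CPM and 292, 303 and 254 CPM in cluster 15, although it rose in the class by a log2 fold change of 1.13. Ndufc2 (80.2, 54.2 and 83.0 CPM against 164, 139 and 134 CPM) and Cox4i1 (773, 677 and 701 CPM against 1130, 1047 and 989.8 CPM) did not overlap between the groups in cluster 15, with adjusted p of 0.154 and 0.153 (edgeR). The class-level count also moved with single rats: it was 12 without control replicate 1 and 14 without BLM replicate 1.

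**Figure D4:**
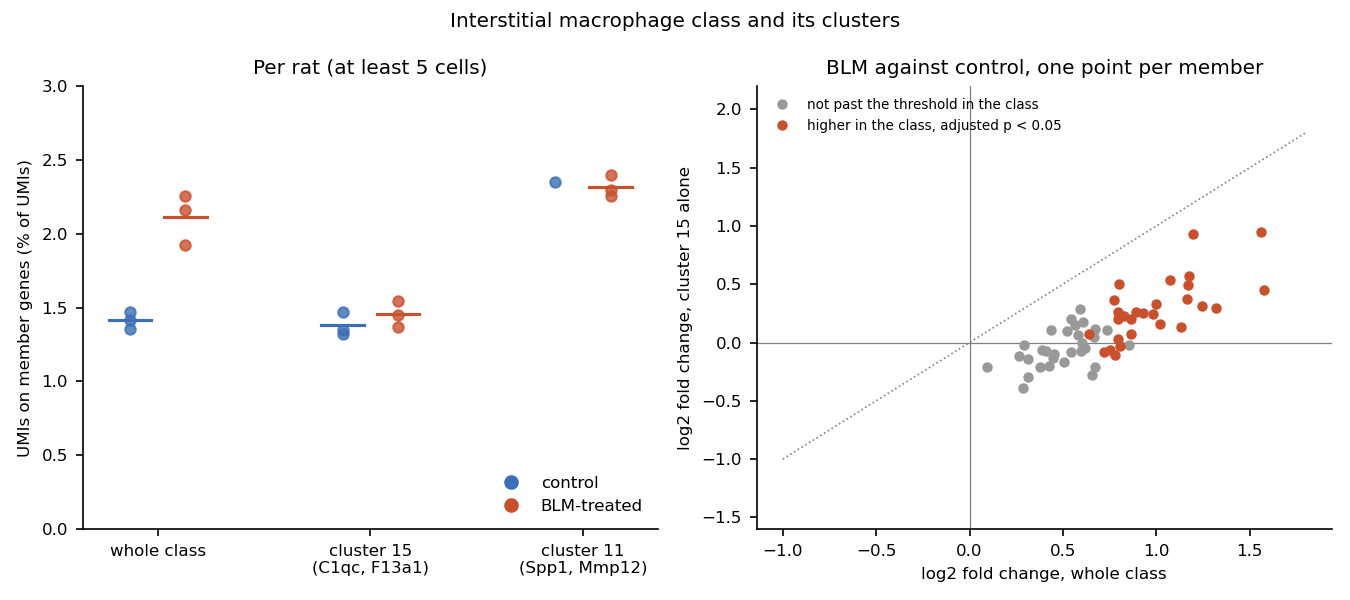
Left, share of UMIs on member genes (y axis, percent) for the interstitial macrophage class and its clusters 15 and 11, 1 point per rat with at least 5 cells, bars at group means. Right, log2 fold change of each member in the class (x axis) against that in cluster 15 alone (y axis), orange for the members called in the class, dotted line at equality. The members called in the class have a median of 0.91 on the x axis and of 0.26 on the y axis.

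In neutrophils, 13 of 59 members tested rose and none fell, where 10.7% of all 3327 genes rose. The median log2 fold change of the members was 0.50 against 0.0032 over all genes, and 27 members were higher in every BLM-treated rat, as were 25.1% of all genes. ATP synthase had 7 of its 14 tested genes among them, complex IV 3 of 11, and complexes I, II and III 1 each. Atp5mc3, 1 of 3 genes for the c subunit whose ring turns with the proton flow, stood at 59.1, 64.9 and 132 CPM in control rats and at 304, 250 and 287 CPM in BLM-treated rats (log2 fold change 1.43, standard error 0.29, adjusted p = 0.00522, edgeR). Atp5mc1, for the same subunit, stood at 67.6, 7.21 and 42.8 CPM against 106, 115 and 106 CPM (1.34, standard error 0.41, adjusted p = 0.0333). Every BLM-treated rat was higher than every control rat for both.

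Atp5f1a, the alpha subunit of the catalytic head, went from 144, 79.3 and 92.2 CPM to 258, 299.5 and 217 CPM (log2 fold change 1.21, standard error 0.28, adjusted p = 0.00906, edgeR). Atp5po, the stalk subunit that confers oligomycin sensitivity, went from 33.8, 7.21 and 36.2 CPM to 76.0, 93.2 and 80.7 CPM (1.44, standard error 0.42, adjusted p = 0.0263). Ndufa10l1 had the largest change (1.75, standard error 0.38, adjusted p = 0.00727), with 16.9, 21.6 and 39.5 CPM against 88.7, 129 and 106 CPM, and its reads may be shared with its near-identical copy Ndufa10, which is not analysed here. Groups did not overlap for any of the 3. Of the 13 members, 8 also rose in interstitial macrophages (61.5% of 13 and 28.6% of 28), including 5 genes of ATP synthase. How many of all genes rose in both classes was not counted, so this overlap is a description.

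Markers of other cells moved with the rise in neutrophils. The summed level of the 7 neutrophil markers was 29850 to 34670 CPM in control rats and 7893 to 15630 CPM in BLM-treated rats. That of the 9 interstitial macrophage markers, all with UMIs, was 8.45 to 166 CPM against 448 to 1738 CPM, and that of the alveolar macrophage list, with 8 of 9 genes detected, was 2762 to 3178 CPM against 4472 to 4735 CPM. Cells with at least 1 UMI of a set of 13 macrophage markers made up 51 of 715 neutrophils in control rats (7.13%, with 23.7% of the UMIs) and 209 of 742 in BLM-treated rats (28.2%, with 65.4% of the UMIs). Without those cells, a comparison added after seeing the markers, 18 members could be tested and none passed edgeR's test (1 had an unadjusted p under 0.05). Their median log2 fold change was 0.10 and 10 were above 0, against 0.50 and 50 of 59 in the class. How many of all genes passed either threshold without those cells was not counted. The 5 of the 13 that could still be tested, Atp5f1b, Atp5f1c, Atp5mc2, Cox4i1 and Cox7a2l, were all above 0, with a median log2 fold change of 0.46. Without the 5% of cells with the highest doublet scores the values moved the other way: 20 members rose, and the 11 of the 13 that could be tested had a median of 1.99 against 1.19 for the 13 in all cells. The count in all cells of the class was 4 without BLM replicate 2, 6 without BLM replicate 1, 6 without control replicate 2 and 7 without control replicate 1.

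**Figure D5:**
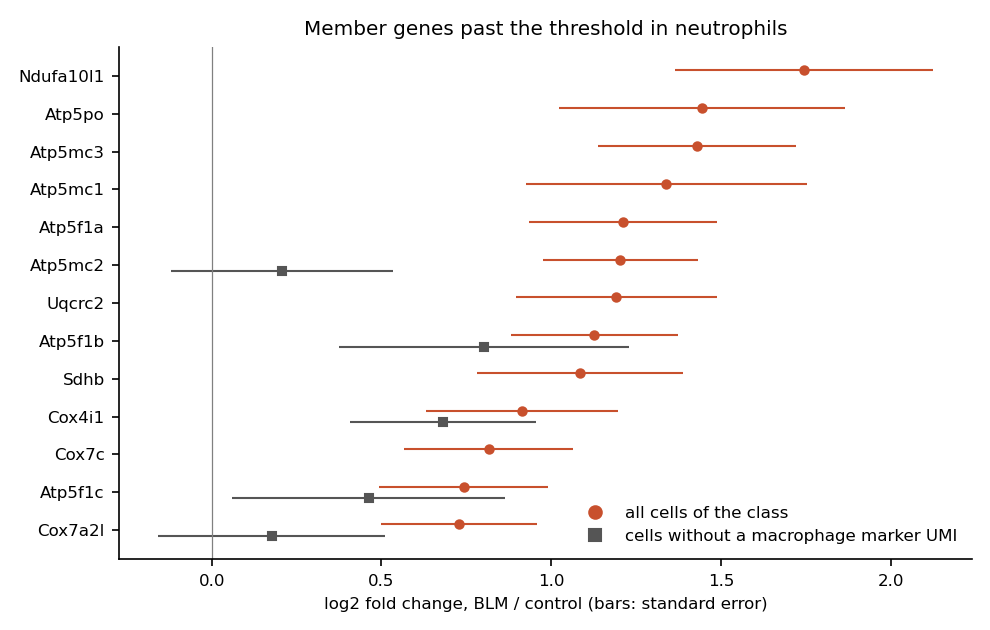
Log2 fold change of BLM-treated over control rats (x axis, bars are standard errors) for the 13 members called in neutrophils (y axis), orange for all cells of the class and grey squares for cells without a macrophage marker UMI. Only 5 members have a grey square, and each of these lies to the left of its orange point.

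Promoters of members that rose are shown for the motifs of factors known to act on nuclear genes of mitochondria. RefSeq's table (GRCr8) held a promoter of 300 bases for 79 of the 91 members, and both strands were searched. The palindrome of NRF1 (in capitals in the windows of Atp5mc2 and Atp5po) was found in 6 of the 79 (7.59%) and in 1.66% of 10726 other measured genes. The YY1 element (in capitals in the window of Ndufb8) was found in 9 (11.4%) against 1.64%. For ETS factors such as GABPA, CCGGAAGT was found in 8 (10.1%) against 7.07%. The cAMP element TGACGTCA was held by 3 (3.80%) against 2.68%, the hypoxia element's ACGTG by 20 (25.3%) against 24.2%, and the Sp1 letters GGGCGG by 33 (41.8%) against 59.1%. The median GC content was 56.0% in members and 60.3% in the others. These counts are descriptions, and a match is not evidence of binding. Atp5mc2 and Atp5po were the only 2 members with the NRF1 palindrome among the 23 that rose in interstitial macrophages and have a promoter, and both also rose in neutrophils.

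The windows with matches in capitals were, for NRF1, Atp5mc2 (another c subunit gene) at chr7:135678169-135678468 and Atp5po at chr11:44657434-44657733. For YY1 it was Ndufb8, an accessory subunit of complex I, at chr1:253362887-253363186, where the match lies after the annotated start. For ETS it was Cox8a, the smallest nuclear subunit of complex IV, at chr1:213833574-213833873, with 2 matches written from the other strand as ACTTCCGG. All 4 genes lie on the minus strand and are printed 5′ to 3′ along the gene.
Atp5mc2: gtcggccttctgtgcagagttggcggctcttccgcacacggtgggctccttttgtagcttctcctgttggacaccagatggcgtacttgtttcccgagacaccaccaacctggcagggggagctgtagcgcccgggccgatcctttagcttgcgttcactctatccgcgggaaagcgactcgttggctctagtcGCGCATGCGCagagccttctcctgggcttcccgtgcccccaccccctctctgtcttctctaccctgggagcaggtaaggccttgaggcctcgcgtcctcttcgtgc
Atp5po: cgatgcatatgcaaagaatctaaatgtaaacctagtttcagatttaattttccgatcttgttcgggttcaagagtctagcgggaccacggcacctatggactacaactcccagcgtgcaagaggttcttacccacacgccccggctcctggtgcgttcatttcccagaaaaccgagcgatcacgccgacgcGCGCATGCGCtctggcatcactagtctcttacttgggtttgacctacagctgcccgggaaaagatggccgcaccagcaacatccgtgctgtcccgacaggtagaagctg
Ndufb8: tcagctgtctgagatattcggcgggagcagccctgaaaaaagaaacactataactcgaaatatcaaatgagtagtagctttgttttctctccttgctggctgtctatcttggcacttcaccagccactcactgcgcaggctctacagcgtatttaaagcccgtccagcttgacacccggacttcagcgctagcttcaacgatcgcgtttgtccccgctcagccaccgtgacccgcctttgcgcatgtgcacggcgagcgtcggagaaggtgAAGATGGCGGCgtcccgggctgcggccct
Cox8a: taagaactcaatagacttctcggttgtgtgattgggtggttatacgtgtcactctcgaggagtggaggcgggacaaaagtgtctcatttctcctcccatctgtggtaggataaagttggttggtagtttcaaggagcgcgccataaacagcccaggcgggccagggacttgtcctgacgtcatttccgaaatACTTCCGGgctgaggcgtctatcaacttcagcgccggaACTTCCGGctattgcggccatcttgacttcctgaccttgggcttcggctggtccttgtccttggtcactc

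Endothelial cells had 1 call among 78 members tested, where 2.68% of 6193 genes fell. Ndufa4 stood at 523, 411 and 544 CPM in control rats and at 237, 242 and 236 CPM in BLM-treated rats. The BLM-treated rats were close together and well below every control rat, with a log2 fold change of -0.95 and a standard error of 0.20 (edgeR, adjusted p = 0.00709). In cluster 4 alone, which held most of the class, it was -1.03 (adjusted p = 0.0046). Without control replicate 3, which gave 150 of the 219 control cells, it was -0.66 and did not pass (adjusted p = 0.2). The other members went both ways, from -1.34 to 0.82 on the log2 scale, and none passed. The lowest was Ndufaf2 (adjusted p = 0.116) and the highest Atp5mc2 (adjusted p = 0.0632), and the median over the 78 was -0.019 against 0.014 over all genes.

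Ndufa4 also fell in fibroblasts, from 483, 387 and 449 CPM to 246, 185 and 235 CPM (log2 fold change -0.82, standard error 0.20, adjusted p = 0.0171, edgeR). It was 1 of 4 of the 79 members tested there that fell, where 5.94% of all 6174 genes fell. Cox6c, a small subunit of complex IV, went from 901, 861 and 1048 CPM to 413, 323 and 364 CPM (-1.19, standard error 0.20, adjusted p = 0.00137). Ndufa11 (161, 55.3 and 69.3 CPM against 33.1, 24.8 and 33.2 CPM) and Ndufa5, an accessory subunit of the peripheral arm of complex I (225, 126 and 196 CPM against 97.7, 84.7 and 87.7 CPM), changed by -1.31 and -0.83 (adjusted p = 0.0358 and 0.0419). All 4 were lower in every BLM-treated rat, as were 22 of the 79 members and 20.5% of all genes, but with 1 rat left out the number of calls was 1 without control replicate 1, control replicate 3 or BLM replicate 2 and 2 without BLM replicate 1.

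The fibroblast class again joined 2 clusters, and control fibroblasts were mostly from cluster 18 (43, 66 and 114 cells) while BLM fibroblasts were mostly from cluster 9 (162, 711 and 195 cells). Mural markers in the class stood at 7231 to 10020 CPM in control rats and at 356 to 994 CPM in BLM-treated rats, with all 8 genes detected. The median depth of the class was 1423 UMIs per cell in control and 3144 in BLM cells. In cluster 9 Cox6c was 326 and 316 CPM in the 2 control rats with at least 5 cells and 394, 310 and 346 CPM in BLM-treated rats, which overlapped. In cluster 18 it was 946, 1107 and 1287 CPM against 834, 679 and 537 CPM (log2 fold change -0.71, adjusted p = 0.109, edgeR), lower in every BLM-treated rat. In that cluster none of the 4 passed, Ndufa11 could not be tested, and Atp5mc2 rose (1.08, adjusted p = 0.0103, edgeR). Calls over all genes in cluster 18 were not counted. Of the 46 members tested in cluster 18, 31 were above 0, with a median log2 fold change of 0.12. In the class 21 of 79 were above 0, with a median of -0.19.

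In alveolar macrophages the calls were few and mostly lower. In cluster 0, 2 of 83 members fell, where 2.68% of 7004 genes fell. Ndufs5, an accessory subunit of complex I, stood at 183, 132 and 216 CPM in control rats and 102, 114 and 112 CPM in BLM-treated rats (log2 fold change -0.81, standard error 0.20, adjusted p = 0.0274, edgeR). Uqcr10, a small subunit of complex III, stood at 192, 161 and 193 CPM against 102, 146 and 95.8 CPM (-0.81, standard error 0.18, adjusted p = 0.019). Both were lower in every BLM-treated rat, yet neither call held without control replicate 1, BLM replicate 1 or BLM replicate 3. The number of members that fell was 0, 1 and 0 without these, 1 without control replicate 3 or BLM replicate 2, and 10 without control replicate 2. The median of all members was -0.21, 69 of 83 were below 0, and 17 were lower in every BLM-treated rat (8.7% of all genes).

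In cluster 2, 6 of 84 members fell, where 3.78% of 7901 genes fell. They were Ndufa13, Uqcr10, Cox7a2l2, Atp5md, Ndufa6 and Ndufa2, with log2 fold changes of -0.96 to -0.57. Ndufa13, an accessory subunit of complex I also known as GRIM-19, stood at 113, 47.9 and 137 CPM in control rats and at 69.7, 62.7 and 62.9 CPM in BLM-treated rats (-0.96, standard error 0.18, adjusted p = 0.00156, edgeR). Control replicate 2, with only 11 cells in this cluster, lay below the BLM-treated rats. Over the cluster, 11 members were lower in every BLM-treated rat (7.99% of all genes). Of the 6, only Atp5md (53.5, 71.9 and 71.0 CPM against 42.5, 40.8 and 39.3 CPM) and Ndufa2 (111, 168 and 127 CPM against 91.3, 73.9 and 91.9 CPM) did not overlap. No member passed without control replicate 3, 3 fell without BLM replicate 2 and 14 fell without control replicate 2. Reads of Cox7a2l2 may be shared with near-identical copies.

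Cluster 8 was the shallow one, with a median of 1044 UMIs per cell, 1112 in control and 594 in BLM cells. Cox7a2l was its only call among 71 members, where 1.55% of 3741 genes rose. This gene, whose product helps complexes III and IV assemble into supercomplexes, stood at 293, 262 and 338 CPM in control rats and at 554, 446 and 820 CPM in BLM-treated rats (log2 fold change 1.02, standard error 0.25, adjusted p = 0.021, edgeR). It did not pass without control replicate 1 or 2, or without any one of the BLM replicates. In proliferating cells 2 of 76 members fell, where 2.63% of 4639 genes fell. Ndufa2 stood at 146, 174 and 161 CPM against 102, 84.6 and 91.3 CPM (-0.82, standard error 0.24, adjusted p = 0.0365), and Cox7a2l2 at 246, 190 and 252 CPM against 123, 126 and 176 CPM (-0.79, standard error 0.22, adjusted p = 0.022). Both were lower in every BLM-treated rat. The number that fell was 0 without control replicate 1, control replicate 3, BLM replicate 1 or BLM replicate 2, 1 without BLM replicate 3 and 5 without control replicate 2, and Ndufa2 did not pass with any 1 rat left out.

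B cells, NK cells, T cells, monocytes, mesothelial cells and plasmacytoid dendritic cells had no call among 65, 71, 76, 77, 69 and 43 members tested. In these classes few genes of any kind were called in either direction, 0.281%, 0.0467%, 0.733%, 0.608%, 2.2% and 0.631% of those tested. With edgeR, 9, 8, 5, 6, 6 and 4 members had an unadjusted p under 0.05 there. How many of all genes lay under that unadjusted threshold was not counted, so these numbers cannot be set against the shares above. In B cells 53 of 65 members were below 0 with a median log2 fold change of -0.26, and 17 were lower in every BLM-treated rat (8.59% of all genes). In NK cells 52 of 71 were below 0 with a median of -0.20, and 15 did not overlap in this way (7.5% of all genes). In T cells 13 of 76 did (9.11%), and the median was -0.10. Ndufa4 in B cells was 344, 286 and 414 CPM in control rats and 156, 190 and 166 CPM in BLM-treated rats, without overlap, and did not pass (adjusted p = 0.0822). Mural, AT2 and club cells, which had too few control or BLM cells for the rule and were tested afterwards at a minimum of 5 cells, had no call among 77, 75 and 66 members, where 6.3%, 2.35% and 0.867% of all genes were called.

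The other genes of the pathway give the context in interstitial macrophages. Of the electron carriers outside the complexes, 2 of 3 tested rose, Etfa and Etfb of the electron-transfer flavoprotein (log2 fold changes 0.91 and 1.08). Of 11 assembly factors of complexes III and IV, 3 rose, Cox17, Sco1 and Uqcc3 (1.09, 2.46 and 1.28). Of the tricarboxylic acid cycle 2 of 12 rose, Mdh2 and Suclg1 (1.13 and 1.06), and of the carriers and channels 4 of 10, Slc25a4, Slc25a5, Mpc1 and Vdac1. Slc25a4, an ADP/ATP exchanger, had a log2 fold change of 1.09. It also rose past the threshold in neutrophils, proliferating cells and clusters 0, 2 and 8 of the alveolar macrophages. Cox17 went the other way in alveolar macrophages and fell in clusters 0 and 2. Of the glycolysis list, 7 of 11 genes rose (Aldoa, Eno1, Ldha, Pgam1, Pgk1, Pkm and Slc2a1, up to 1.58 in Eno1), 4 did not pass, and the median was 1.14. These lists stand against the 9.83% of all genes that rose in the class, and like the members they compare BLM cells mostly of cluster 11 with control cells mostly of cluster 15. They were not tested within cluster 15. Among 7 regulators of mitochondrial biogenesis only Pprc1 passed, and it fell (-1.25). In the hypoxia list 1 of 5, Ddit4, passed and fell (-0.84).

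In neutrophils Etfa, Slc25a4, Eno1 and Gpi rose and Vegfa fell, with 1 of 2, 1 of 9, 2 of 10 and 1 of 4 genes tested passing in the electron carrier, carrier, glycolysis and hypoxia lists. None of the 2 assembly, 7 tricarboxylic acid cycle and 3 regulator genes tested passed. Of all 3327 genes tested in neutrophils, 357 rose and 315 fell. The lists were not tested without the cells with macrophage marker UMIs. Those cells held 65.4% of the neutrophil UMIs in BLM-treated rats and 23.7% in control rats. In endothelial cells, where only Ndufa4 among the members passed and 4.02% of all genes rose, 4 of 11 glycolysis genes rose (Aldoa, Ldha, Pgk1 and Slc2a1, log2 fold changes 1.18 to 2.21) and 4 of 8 hypoxia genes rose (Bnip3, Ankrd37, Ndrg1 and Hif1a, 1.36 to 3.10). None of the 12 tricarboxylic acid cycle genes, 10 carriers, 10 assembly factors, 7 regulators and 3 electron carriers tested passed there. Endothelial markers summed to 13610 to 15190 CPM in control rats and 9424 to 10030 CPM in BLM-treated rats, and those of interstitial macrophages to 74.7 to 220 CPM and 547 to 692 CPM. Their part in these differences was not tested.

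That the effect of BLM differed among the 14 classes was tested directly, with rat as a block in a single fit. The test passed for 53 of 83 members (63.9%), where it passed for 26.4% of 9597 genes. It used whole classes and was not repeated with single clusters or without the neutrophils that held macrophage marker UMIs. A difference in the make-up of a class can therefore enter it. The count was 28 without control replicate 1, 35 without control replicate 2 and 27 without BLM replicate 2.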

How the data were processed

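Single cells from the lungs of 3 control and 3 BLM-treated rats were read from 1 table of raw counts (UMIs per gene and cell) that the authors deposited. The submitters' processing notes list mm9, a mouse build, although the samples are rat. Which genome the counts were made on is unresolved here, with no aligner or counter named (not given in the sources used here). Values lie 1 field to the right of their header name and were read so. Cell names end in N or F and a number. N and F were taken as control and BLM because they hold 10538 and 15009 cells, the totals the study gives for its groups, and the numbers as those of the titles.

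Cells were clustered with scanpy 1.11.5 and leidenalg 0.10.2 (2000 variable genes without the members, 30 components, 15 neighbours, resolution 1.0) and named from fixed marker lists. All cells were kept, and doublets were treated only in an alternative without the 5% of cells with the highest scores. Counts were summed per rat and class and tested with edgeR 4.0.16 (R 4.3.3, TMM scaling, quasi-likelihood test, Benjamini-Hochberg adjustment over all genes tested, threshold 0.05) in classes with at least 10 cells in each rat. Each rat gave 1 sample, and p-values measure the spread between these samples. On simulated counts for interstitial macrophages (5939 genes), 40% of genes changed by 1 log2 unit and 81% of those changed by 2 were recovered, and for neutrophils (3327 genes) 37% and 88%. Over the classes, recovery of a change of 1 log2 unit ran from 20% in alveolar macrophage cluster 8 to 71% in cluster 2. It was 23% in endothelial cells and in fibroblasts, and 10.5% of the simulated endothelial calls were false.

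Named genes were, in each class, up to 5 members with the largest change in each direction among those past the threshold at 20 CPM or more, members past it in 3 classes, the alternative subunits, and the 5 members with the widest ratio between classes. Other names were chosen after values were seen. Members and lists were chosen with earlier results of these data known. A list of ribosomal protein genes was not analysed here. Alternatives were DESeq2 1.42.0, other scaling and filters, a replicate block, deeper cells, another resolution, single rats left out and, after seeing the data, single clusters and cells without macrophage markers.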

Additional observations from a re-analysis of the deposited data

Results flagged for a closer look

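The effect of BLM differed among the 14 classes for 53 of the 83 members tested, by edgeR's quasi-likelihood F test of the difference with rat as a block. The values that follow are for the named genes with the largest calls in each class that passed it. They were chosen for a change in some class of these same data, so their p-values are a description and no independent support. The fit used whole classes and was not repeated with single clusters or without the neutrophils that held macrophage marker UMIs. Atp5md, which fell in alveolar macrophage cluster 2, did not pass (adjusted p = 0.0628). Rising in interstitial macrophages, Cox5a had an adjusted p = 1.45e-05, Ndufb5 0.000114, Ndufab1 0.000139, Ndufc2 0.00174 and Uqcrc2 0.0172. Rising in neutrophils, Atp5f1a had an adjusted p = 3.71e-06, Atp5mc3 5.02e-06, Atp5mc1 0.000345, Atp5po 0.00259 and Ndufa10l1 0.0256. Falling in fibroblasts, Cox6c had an adjusted p = 1.09e-07, Ndufa4 3.85e-05, Ndufa5 0.000707 and Ndufa11 0.0386. Among those that changed in alveolar macrophages or proliferating cells, the adjusted p was 2.15e-06 for Ndufs5, 0.000249 for Cox7a2l, 0.000399 for Ndufa6, 0.00172 for Uqcr10, 0.00224 for Ndufa2, 0.00265 for Cox7a2l2 and 0.00353 for Ndufa13.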

How the results depend on the processing

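No gene named for its change in a class changed direction there, in any setting where it could be tested. Counts of classes with calls were followed in the direction of those calls. In fibroblasts the only call within a single cluster went the other way. Of the 28 members that rose in interstitial macrophages, 4 were below 0 within cluster 15 alone. With 1 replicate left out, the number of members called ranged from 12 to 36 in interstitial macrophages, 4 to 11 in neutrophils, 1 to 3 in fibroblasts, 0 to 1 in endothelial cells, 0 to 10, 0 to 14 and 0 to 1 in alveolar macrophage clusters 0, 2 and 8, 0 to 5 in proliferating cells, 0 to 2 in monocytes, 0 to 1 in plasmacytoid dendritic cells, and 27 to 52 for the difference among classes; it was 0 in the other classes. The calls in monocytes and plasmacytoid dendritic cells came without control replicate 2. Without a filter, 15 members fell in alveolar macrophage cluster 0, 0 rose in cluster 8 and 2 fell in fibroblasts, while 1 was called in B cells, 1 in T cells, 1 in monocytes, 1 in plasmacytoid dendritic cells and 2 in mesothelial cells. DESeq2 gave 6 in neutrophils, 0 in cluster 2, 2 in cluster 8, 0 in proliferating cells and 1 in B cells. Without the highest doublet scores there were 20 in neutrophils, 1 in proliferating cells and 1 in B cells. Cells of at least 500 UMIs gave 0 in cluster 8, and the finer clustering gave 1 in proliferating cells and no value for the alveolar macrophage clusters. With the replicate number as a block there were 6 in neutrophils, 3 in cluster 2 and 0 in proliferating cells. The deviations of same-numbered rats from their group means correlated by -0.214 to 0.108. With 3 rats in a group this cannot settle whether the numbers pair the samples, and the labels do not say. Among the alternatives added after seeing the data, single clusters gave 0 that rose in interstitial macrophages and 0 that fell in fibroblasts (where 1, Atp5mc2, rose), and neutrophils without macrophage marker UMIs gave 0. The cause of these moves was not tested, and calls over all genes in the alternatives were not counted. For named genes, 233 of 324 values stayed on their side of the threshold and 91 no longer passed.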

Other observations

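Some members lay on the same side in most classes without passing the test in most of them; they were chosen after their values were seen, and the 14 classes share the same 6 rats. Ndufa13 was below 0 in 13 of 14 classes and without overlap in 8, with a median log2 fold change of -0.89. In plasmacytoid dendritic cells Ndufa13 stood at 297, 176 and 331 CPM in control rats and 83.3, 104 and 60.0 CPM in BLM-treated rats (log2 fold change -1.72, adjusted p = 0.0897, edgeR). Cox6c was below 0 in 11 of 14 classes, 9 of them without overlap, but it rose past the threshold in interstitial macrophages. Atp5mc2 was above 0 in 13 of 14 classes, with a median of 0.28, and Cox7a2l in 11 of 14, with a median of 0.36. How often other genes of the table lay on the same side in as many classes was not counted.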
